A study of Mus musculus with 4 samples.

Results

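The 32 genes described here encode the glucose transporters, the enzymes from hexokinase to lactate dehydrogenase, the lactate transporters and the pyruvate dehydrogenase branch, together with the isoforms that adult muscle uses at these steps. They were chosen by name, not by their values, and are 32 of the 32285 genes in the matrices. A further 38 genes of the same and adjoining pathways were kept as a second list. The cells were sorted muscle stem cells (MuSCs) from the hindlimbs of C57BL/6J mice of 3 to 4 months. Control mice carried Pax7 CreERT2, which drives an inducible recombinase in Pax7-expressing cells, and a ROSA26 tdTomato reporter that recombination switches on. The α-cdKO mice carried both of these and floxed alleles of Ctnna1 and Ctnna3. These were meant to delete αE- and αT-catenin, which link cadherins to actin, in the same cells. The paper reports that, at each time after tamoxifen, most MuSCs still present held αE- or αT-catenin protein. Loss of both in the sorted cells is therefore not assured. All mice received tamoxifen on 5 consecutive days, and tdTomato+ cells were taken 14 days later. There were 2 samples for each genotype, each a pool of 2 littermates. Between genotypes, the p-values below set a difference against the spread between these pools. Between groups of cells, they use the spread, over the 4 pools, of the difference within each pool.

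Glycolysis splits glucose into pyruvate in a chain of enzymes, and lactate dehydrogenase and the monocarboxylate transporters dispose of the surplus as lactate. Quiescent MuSCs are known to run at a low metabolic rate and to enlarge their glycolytic machinery as they activate. Several steps are catalysed by sister genes with different tissue patterns, and adult muscle fibers rely on Pfkm, Pgam2, Eno3 and Slc2a4 where other cells use Pfkp or Pfkl, Pgam1, Eno1 and Slc2a1.

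The deposited matrices held 46099310 to 74921651 unique molecular identifiers (UMIs, one per captured RNA molecule) for a sample, and 28790 of 31254 barcodes passed the filter used here (1000 UMIs, 400 genes, mitochondrial share below 15%). Median depth was 6452.5 to 8075 UMIs per kept cell. Any 2 samples shared 9 to 26 barcodes among the kept cells. Summed over all myogenic cells, Ctnna1 was at 91.0 and 74.6 CPM (a gene's UMIs, scaled to a sum of 1000000 over the genes of the summed cells) in the control samples and at 79.6 and 75.4 CPM in the α-cdKO samples, and Ctnna3 was below 0.3 CPM in all 4. These are counts of 3′ ends, and the exons removed are not given in the sources used here, so the RNA level was no check of the deletion.

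Cells were grouped by genes that are not among the 32. An activation index compared Myod1, the myogenic factor that accumulates on activation, with 8 genes of quiescence such as Pax7 and Spry1, and the 26039 cells in no other group were cut into 4 quartiles of this index. The outermost quartiles held 6510 and 6028 cells, with 2781, 2351 and 2244 cells within 0.25 log2 units of the 3 cuts. The third cut fell at an index of 0, and 1935 cells lay exactly on it. Such cells have equal Myod1 and quiescence-list CPM, which includes cells with no UMI of either. All of them were placed in the third quartile, which held 6991 cells, so its place in the order is less certain. Myod1 was at 5.72 to 16.3 CPM in the bottom quartile and at 1870 to 2423 CPM in the top quartile, which follows from the rule. Myf5, a marker of MuSCs that the rule did not use, was at 251 to 345 and at 234 to 331 CPM in the same quartiles. The immediate early genes Fos and Jun, also unused, were lower in the top quartile, Fos at 1303 to 2708 CPM in the bottom and at 88.4 to 180 CPM in the top quartile. The part of that difference in the results below was not tested.

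The 3 further groups were smaller. There were 613 Myog-positive cells (at least 2 UMIs of Myog, the factor of terminal differentiation), 53 to 280 per sample, of which 435 held a UMI of Mymk, the membrane protein of myoblast fusion. There were 569 cycling cells. There were 1240 barcodes in which 8 adult-muscle genes such as Ckm made up at least 0.5% of the UMIs, and these are called mature-muscle barcodes. They had a median of 0.0657% mitochondrial UMIs against 6.13% in the bottom quartile, a median depth of 2982 UMIs, and an uneven spread of 111, 790, 265 and 74 over the samples Control 1, Control 2, α-cdKO 1 and α-cdKO 2. Values for single samples are given in that order throughout. In sums over cells, a change in the share of cells that express a gene and a change in the RNA per cell cannot be told apart.

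Activation came first among the comparisons. Between the bottom and the top quartile of the activation index, hexokinase Hk2, the transporters Slc2a1, Slc16a1 and Slc16a3, and Ldha rose. Of their sister genes at these steps, Hk1 and Ldhb were called lower, and Slc2a3 was not called. In all, 12 of the 28 members with enough counts were higher in the top quartile and 6 were lower. The background was broad, since 59.8% of the 12260 genes tested were called, 29.8% higher and 30% lower, so 18 of 28 members called is close to that background, while the members called higher were a larger share than among all genes. The median log2 fold change was 0.16 over the members tested and -0.04 over all genes. Aldoc, Eno2, Fbp2 and Slc2a4 had too few counts, with 7, 128, 33 and 214 UMIs over all myogenic cells.

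**Figure D1:**
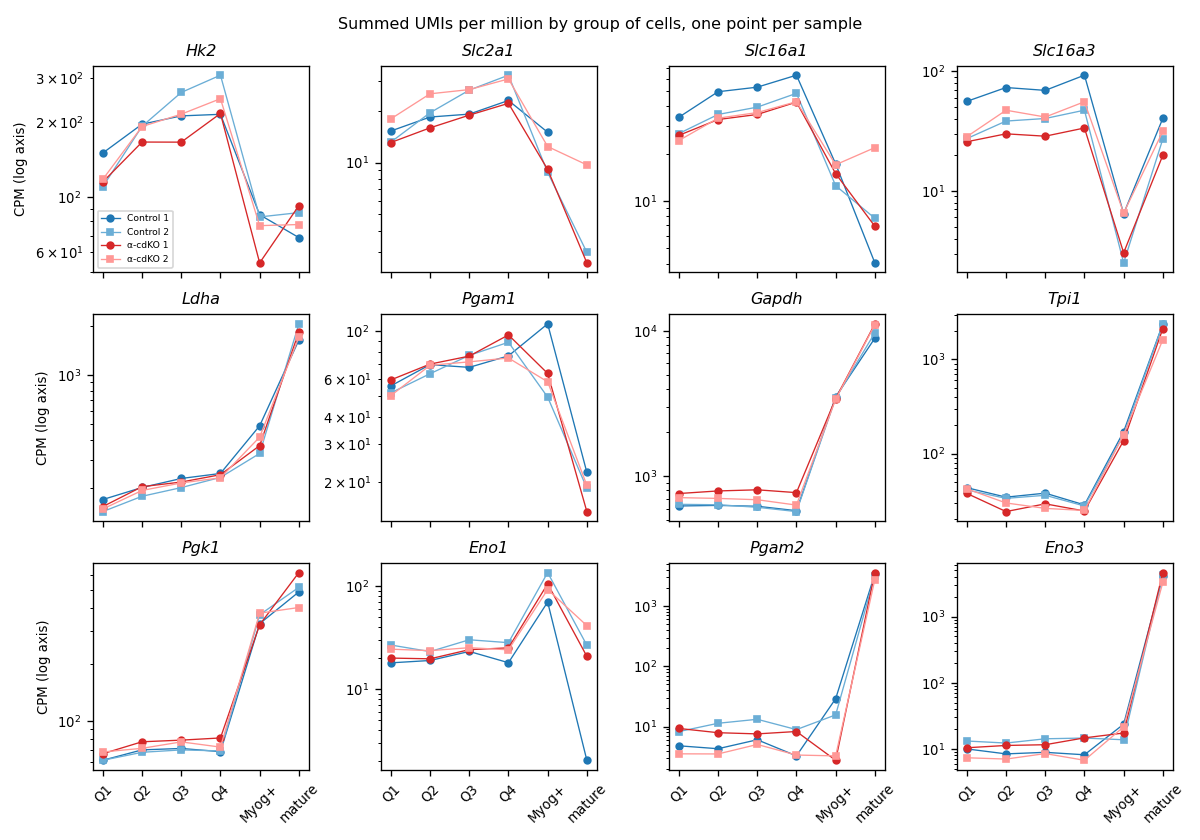
CPM of the summed cells (log axis) of 12 genes in the 4 quartiles of the activation index (Q1 to Q4), Myog-positive cells and mature-muscle barcodes, with one line per sample and a value of 0 (Slc2a1, mature-muscle, Control 1) not drawn. Hk2, Slc2a1, Slc16a1 and Ldha climb from Q1 to Q4 in all 4 samples, and Pgam2 and Eno3 stand at 2756 CPM or more at the last point and below 30 CPM before it.

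Hk2, the inducible hexokinase that commits glucose to the cell, was at 150, 110, 115 and 118 CPM in the bottom quartile and at 215, 309, 217 and 248 CPM in the top quartile. Every sample was higher in the top quartile, with no overlap between the quartiles. The log2 fold change was 1.16 (SE 0.10, n = 4 samples, edgeR quasi-likelihood adjusted p = 1.43e-07). Over all 4 quartiles its mean rose from 123 to 187, 214 and 247 CPM, at every step in 3 of 4 samples. The share of cells with an Hk2 UMI, after thinning each cell to 2000 UMIs, was 14.02% in the bottom and 28.0% in the top quartile (29.1% and 54.0% unthinned), against 6.25% in endothelial cells, whose median depth was of the same order. Hk1, the constitutive form, went the other way, at 34.9, 25.7, 30.6 and 31.6 CPM and then at 24.4, 17.5, 26.4 and 21.4 CPM, a log2 fold change of -0.29 (SE 0.08, edgeR adjusted p = 0.00562). Its call was lost without α-cdKO 2.

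Slc2a1 (GLUT1), the basal glucose transporter, was at 15.3, 13.2, 13.1 and 18.0 CPM in the bottom quartile and at 23.1, 32.5, 22.2 and 30.9 CPM in the top quartile. It rose at every step between quartiles in all 4 samples (log2 fold change 1.01, SE 0.10, edgeR adjusted p = 5.64e-07). Slc2a3 (GLUT3) was at 13.0 to 14.5 and at 10.4 to 14.2 CPM and did not pass the test (edgeR adjusted p = 0.458). Slc2a1 thus went from 50.8% ± 3.80 (SD, n = 4) to 68.9% ± 6.36 of the UMIs of these transporters.

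The lactate transporters behaved alike. Slc16a1 (MCT1) was at 34.0, 26.8, 26.1 and 24.2 CPM in the bottom quartile and at 63.0, 48.3, 42.5 and 42.7 CPM in the top quartile, and it rose at every step in all 4 samples (log2 fold change 0.98, SE 0.07, edgeR adjusted p = 2.66e-08). Slc16a3 (MCT4), the form linked to lactate export, was at 56.0, 27.4, 25.8 and 28.4 CPM and then at 92.8, 47.3, 33.6 and 55.6 CPM (log2 fold change 0.89, SE 0.09, edgeR adjusted p = 3.53e-07). Control 1 held the highest level of Slc16a3 in both quartiles.

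Ldha, which makes lactate from pyruvate, was at 170, 144, 154 and 149 CPM in the bottom quartile and at 247, 233, 242 and 232 CPM in the top quartile. The quartiles did not overlap, and it rose at every step in all 4 samples (log2 fold change 0.80, SE 0.06, edgeR adjusted p = 1.79e-08). Ldhb, the heart-type subunit, fell from 17.9, 19.1, 18.6 and 16.6 CPM to 10.6, 10.9, 9.59 and 8.72 CPM (log2 fold change -0.71, SE 0.10, edgeR adjusted p = 1.11e-05). As a result Ldhb went from 10.5% ± 0.970 to 3.99% ± 0.361 of lactate dehydrogenase UMIs, lower in 4 of 4 samples.

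Within the middle of the chain, members moved in both directions. Pgam1, the general phosphoglycerate mutase, was at 55.7, 51.8, 59.4 and 50.3 CPM and then at 76.6, 88.5, 95.7 and 74.9 CPM (log2 fold change 0.79, SE 0.07, edgeR adjusted p = 1.10e-07). Smaller rises, of 0.24 to 0.39 log2 units, were called for Aldoa, Pfkp, Pgk1, Eno1 and Pdk4. Tpi1, triose phosphate isomerase, fell in 4 of 4 samples, from 43.3, 41.0, 37.7 and 42.1 CPM to 28.4, 27.7, 24.5 and 24.8 CPM (log2 fold change -0.48, SE 0.08, edgeR adjusted p = 4.64e-05). Gpi1, with a log2 fold change of -0.19, and Pfkm, with -0.61, were also called lower, and Gapdh was not called (0.06, SE 0.05). The call of Gpi1 was lost without Control 2 and without α-cdKO 2, and those of Eno1 and Pdk4 without α-cdKO 1.

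At the exit into the mitochondria, Pdk1, a kinase that shuts off pyruvate dehydrogenase, was at 3.26, 3.24, 3.97 and 4.24 CPM and then at 2.18, 0.920, 2.85 and 1.78 CPM (log2 fold change -0.79, SE 0.22, edgeR adjusted p = 0.0054), and the call was lost without α-cdKO 2. Pdk4, the kinase with the highest level here, was at 59.0 to 91.4 and at 65.3 to 103 CPM. Pdha1, the catalytic subunit, was at 40.2 to 44.97 and at 37.4 to 47.2 CPM and was not called (edgeR adjusted p = 0.0565).

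The direction of small changes depended on scaling. With library size alone in place of TMM, the median over all genes shifted by -0.16 log2 units and 9 members were higher and 7 lower. Among all 12260 genes tested, 2523 were then called higher and 4967 lower. Pkm, pyruvate kinase, was called higher by 0.16 (SE 0.06, edgeR adjusted p = 0.0208) but its value was -0.00 with library size alone, and its CPM, 164.6 to 175 in the bottom and 163.9 to 176 in the top quartile, was higher in 2 samples and lower in 2. The calls of Eno1 and Pdk4 were also lost there. Pkm's splice forms cannot be told apart in gene counts.

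The 250 bases upstream of the start sites are shown for 4 of the rising genes, because 9 of the 12 members called higher and matched to RefSeq held the letters ACGTG on either strand within them. ACGTG is the core of the element bound by hypoxia-inducible factors, and where it stands within CACGTG both strands match. Capitals mark ACGTG or its complement CACGT, and all are 5′ to 3′ on the strand of the gene in RefSeq's GRCm38.p6. Ldha lies at chr7:46845554-46845803 on the + strand (the upstream start of 2), Slc16a1 at chr3:104638414-104638663 on the + strand, Hk2 at chr6:82774455-82774704 on the - strand and Pgam1 at chr19:41911621-41911870 on the + strand.
Ldha: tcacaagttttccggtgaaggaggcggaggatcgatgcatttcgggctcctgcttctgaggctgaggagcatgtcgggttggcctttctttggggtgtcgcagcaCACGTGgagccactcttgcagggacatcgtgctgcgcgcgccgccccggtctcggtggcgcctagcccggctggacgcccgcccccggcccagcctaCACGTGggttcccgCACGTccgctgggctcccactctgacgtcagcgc
Slc16a1: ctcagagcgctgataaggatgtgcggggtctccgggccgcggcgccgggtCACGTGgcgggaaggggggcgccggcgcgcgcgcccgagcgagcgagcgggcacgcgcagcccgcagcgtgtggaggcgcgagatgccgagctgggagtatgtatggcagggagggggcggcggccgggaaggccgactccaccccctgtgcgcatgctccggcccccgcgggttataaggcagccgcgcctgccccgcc
Hk2: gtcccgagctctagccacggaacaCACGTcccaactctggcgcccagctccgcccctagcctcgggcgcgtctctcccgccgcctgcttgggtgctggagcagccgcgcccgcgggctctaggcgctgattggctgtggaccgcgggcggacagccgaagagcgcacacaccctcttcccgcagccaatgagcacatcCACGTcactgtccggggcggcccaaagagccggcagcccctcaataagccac
Pgam1: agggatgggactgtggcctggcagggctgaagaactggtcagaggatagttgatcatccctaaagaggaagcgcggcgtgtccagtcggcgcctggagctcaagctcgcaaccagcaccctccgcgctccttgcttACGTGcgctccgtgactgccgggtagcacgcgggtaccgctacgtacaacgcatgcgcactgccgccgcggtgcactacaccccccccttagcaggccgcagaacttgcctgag
Of 32851 promoters in the table, 16.6% held ACGTG, against 18 of the 45 listed for the 30 members that could be matched (40%). Counted by gene, it stood upstream of 9 of 12 members called higher, 1 of 6 called lower (Pfkm) and 3 of 9 not called. Among all genes tested the shares were 28.3% of those called higher, 23.6% of those called lower and 24.8% of those not called. This count was made after the calls were known and is a description of letters, with no test.

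The next comparison set Myog-positive cells, the differentiating minority, against the top quartile. Hk2 and the transporters that had risen with activation fell, while Gapdh, Tpi1, Pgk1 and Eno1 rose more than 3-fold. Of 29 members tested, 14 were higher and 7 lower, where 30.2% of the 11400 genes tested were called higher and 33.3% lower (63.5% called in all). The median log2 fold change was 0.48 over the members and -0.04 over all genes. Myog-positive cells had a median depth of 13847 UMIs against 7658 in the top quartile.

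Slc16a3 fell furthest. It was at 92.8, 47.3, 33.6 and 55.6 CPM in the top quartile and at 6.45, 2.50, 3.04 and 6.54 CPM in Myog-positive cells, which is 41 UMIs in all (log2 fold change -3.87, SE 0.19, edgeR adjusted p = 7.85e-09). Slc16a1 fell from 42.5 to 63.0 CPM down to 12.5 to 17.2 CPM (log2 fold change -1.97, SE 0.15, edgeR adjusted p = 1.89e-07). Neither lactate transporter led across samples in the top quartile, where Slc16a1 had 47.6% ± 6.96 of their UMIs, and in Myog-positive cells it had 77.8% ± 6.20. In all 4 samples the share of Slc16a1 rose, by 30.3 points ± 2.72 on average (two-sided exact sign-flip permutation test over samples, with its smallest possible p, 1 in 8).

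Among glucose transporters, Slc2a3 fell from 14.2, 10.4, 10.5 and 11.6 CPM to 1.08, 1.88, 2.49 and 0.981 CPM (log2 fold change -3.07, SE 0.30, edgeR adjusted p = 1.91e-06). Slc2a1 fell by 1.68 log2 units (SE 0.18). Slc2a4 (GLUT4), the insulin-regulated transporter of muscle, was at 0.981, 0.460, 0.0648 and 0.246 CPM in the top quartile and at 1.08, 4.38, 2.77 and 2.62 CPM in Myog-positive cells. It was called higher (log2 fold change 2.65, SE 0.63, edgeR adjusted p = 0.00265) on 19 and 26 UMIs, so the size is imprecise, and leave-one-out values ran from 2.27 to 3.36. One Control 2 cell held 4 of that sample's 7 UMIs.

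Hk2 fell to 85.0, 83.3, 54.5 and 76.8 CPM, below every value of the top quartile (log2 fold change -2.12, SE 0.11, edgeR adjusted p = 1.34e-08). Hk1 rose to 47.3, 27.6, 49.8 and 52.3 CPM (log2 fold change 0.61, SE 0.13, edgeR adjusted p = 0.00152). Over all kept Myog-positive cells Hk2 remained the more abundant, with 62.8% ± 9.60 of hexokinase UMIs against 91.4% ± 2.49 in the top quartile. The share fell in 4 of 4 samples, by 28.6 points. Without the deepest cells it fell by 44.23 points, and a lead of Hk2 over Hk1 is not assured there.

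Gapdh, Tpi1, Pgk1, Eno1, Aldoa and Gpi1 rose by over 1 log2 unit each. Gapdh, glyceraldehyde-3-phosphate dehydrogenase, went from 580, 572, 772 and 634 CPM to 3514, 3446, 3422 and 3383 CPM, a spread of 55.3 CPM (SD) around a mean of 3441 (log2 fold change 2.06, SE 0.08, edgeR adjusted p = 1.77e-09). Tpi1, which had fallen with activation, rose from 28.4, 27.7, 24.5 and 24.8 CPM to 171, 158, 137 and 159 CPM (log2 fold change 2.19, SE 0.10, edgeR adjusted p = 6.43e-09). Pgk1 rose by 1.89, Eno1 by 1.69, Aldoa by 1.24 and Gpi1 by 1.08 log2 units. Eno1 shares near-identical sequence with Eno1b, for which 897 UMIs were counted against 6856. Its level is therefore uncertain, and these counts do not show by how much.

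Smaller increases were called for Pdk3 (0.88), Pdha1 (0.72), Pfkm (0.71), Pdk4 (0.70), Pkm (0.52) and Ldha (0.35). Pfkp, the leading phosphofructokinase, fell by 1.57 and Pgam1 by 0.72 log2 units. The call of Pgam1 was lost with library size alone, and Pfkm lost its call without Control 1, α-cdKO 1 or α-cdKO 2, and also in cells with under 0.1% adult-muscle UMIs. In Control 1, 1 cell held 8 of the 13 Pfkm UMIs and had 0.448% adult-muscle UMIs, just under the limit for mature-muscle barcodes. Pdk3 lost its call without Control 2, α-cdKO 1 or α-cdKO 2, and Ldha without α-cdKO 2. Scaling by library size moved the median of all genes by 0.37 log2 units in this comparison, with 17 members higher and 6 lower. Among all 11400 genes tested, 4891 were then called higher and 2303 lower.

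**Figure D2:**
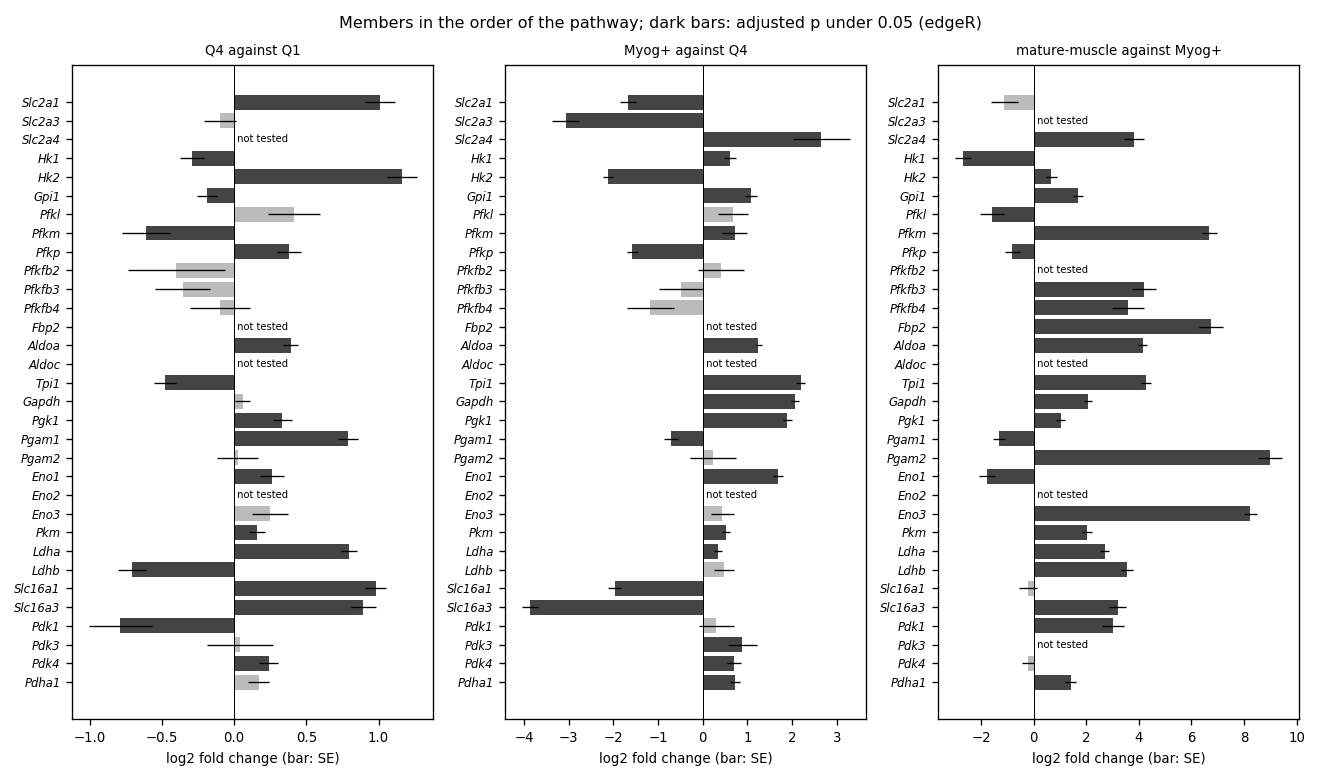
Log2 fold changes (edgeR with TMM, error bars are standard errors) of the 32 members in pathway order for the top against the bottom quartile, Myog-positive cells against the top quartile, and mature-muscle barcodes against Myog-positive cells, with dark bars for an adjusted p under 0.05. Hk2, Slc2a1, Slc16a1 and Slc16a3 point right in the first panel and left in the second, and Pgam2 and Eno3 exceed 8 only in the third.

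Within Myog-positive cells, those with a Mymk UMI were set against those without. Aldoa, Tpi1 and Pdha1 were higher in the Mymk-positive cells. Of 20 members tested, 9 were higher and 3 lower, where 8.59% of the 6905 genes tested were higher and 9.7% lower (18.3% called in all). The groups were small, with 17, 27, 89 and 45 Mymk-negative cells, and the count fell to 5 without α-cdKO 2, 7 without α-cdKO 1 and 6 without the deepest cells. Mymk-positive cells were also deeper, with a median of 15395 against 10909 UMIs.

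Aldoa was at 638, 729, 450 and 516 CPM without and at 1220, 1288, 1103 and 1124 CPM with Mymk (log2 fold change 1.04, SE 0.11, edgeR adjusted p = 4.14e-05). Tpi1 was at 119, 87.2, 67.8 and 94.4 and at 192, 173, 163 and 175 CPM (log2 fold change 0.96, SE 0.15, edgeR adjusted p = 0.000541). Pdha1 was at 85.8, 34.9, 43.1 and 45.6 and at 130, 95.4, 92.0 and 96.2 CPM (log2 fold change 1.02, SE 0.17, edgeR adjusted p = 0.000947). Each of these was higher in 4 of 4 samples, and the calls stood without any one sample. Pdk4 was at 59.7, 209, 55.5 and 97.5 and at 119, 166, 302 and 200 CPM, called higher by 1.05 (SE 0.32, edgeR adjusted p = 0.0326) although Control 2 went the other way. Its value fell to 0.49 without α-cdKO 1, and it was not called without either α-cdKO sample.

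Hk1 was at 63.4, 55.8, 60.6 and 77.1 CPM without Mymk and at 40.8, 21.4, 45.8 and 45.8 CPM with it (log2 fold change -0.74, SE 0.20, edgeR adjusted p = 0.0198), and was not called without α-cdKO 2. Pgam2, the muscle mutase, was at 70.8, 62.8, 3.08 and 4.72 CPM and at 12.1, 5.34, 2.65 and 2.89 CPM. It was called lower by 2.11 log2 units (edgeR adjusted p = 0.0119), but the values of both controls rested largely on single cells: in Control 1 one cell held 19 of 27 Pgam2 UMIs and in Control 2 one cell held 15 of 25. Those cells had 0.152% and 0.169% adult-muscle UMIs, and in cells under 0.1% the gene had too few counts to test.

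The mature-muscle barcodes carried the isoforms of the adult fiber. Pgam2, Eno3 and Pfkm differed from Myog-positive cells by more than 6 log2 units, as did Fbp2, which had few counts there, and Pgam1, Eno1, Pfkp, Pfkl and Hk1 were lower. Of 27 members tested, 19 were higher and 5 lower, where 27.6% of the 8429 genes tested were called higher and 35.7% lower (63.3% called in all). The barcodes were chosen by other muscle genes, and 240 of the 1240 had at least 1% mitochondrial UMIs, so that fragments of fibers and whole cells cannot be told apart. Scaling by library size alone moved the median of all genes by -0.50 log2 units here, with 18 members higher and 7 lower. Among all 8429 genes tested, 1727 were then called higher and 4334 lower.

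Pgam2 was at 3411, 3207, 3592 and 2756 CPM in mature-muscle barcodes and at 29.0, 15.7, 2.77 and 3.27 CPM in Myog-positive cells (log2 fold change 8.99, SE 0.46, edgeR adjusted p = 3.27e-10). Eno3, the muscle enolase, was at 4040, 4233, 4605 and 3282 CPM against 23.7, 13.8, 17.4 and 21.6 CPM (log2 fold change 8.24, SE 0.24, edgeR adjusted p = 7.21e-13). Pfkm was at 581, 672, 594 and 332 CPM against 13.98, 3.76, 7.47 and 5.89 CPM (log2 fold change 6.68, SE 0.28, edgeR adjusted p = 3.72e-11). For each of the 3 genes the groups lay far apart in every sample. α-cdKO 2, with the fewest such barcodes, held the lowest level of all 3.

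Fbp2, the muscle fructose bisphosphatase, was at 36.4, 48.4, 67.4 and 26.7 CPM in mature-muscle barcodes, while only 5 UMIs were counted in Myog-positive cells, in Control 2 and α-cdKO 1, so no fold is given for it. Slc2a4 was at 24.3, 31.7, 47.5 and 9.70 CPM (log2 fold change 3.82, SE 0.39, edgeR adjusted p = 5.93e-07). Pfkfb3, which makes the activator of phosphofructokinase, was at 22.3, 32.9, 45.8 and 21.8 CPM against 6.45, 0, 2.77 and 2.29 CPM (log2 fold change 4.19, SE 0.45, edgeR adjusted p = 1.16e-06). Fbp2, Slc2a4 and Pfkfb3 had too few counts to test when Myog-positive cells entered alone, as had Pfkfb4 and Pdk1. They entered the present test through their counts in mature-muscle barcodes. Their direction was thus largely set by the count filter and carries no weight, though all are among the members counted as higher. Rises of 1.03 to 3.59 log2 units were called for Pfkfb4, Ldhb, Pdk1, Ldha, Pkm, Gpi1, Pdha1 and Pgk1. Pdk4 was not called, and Aldoc, Eno2, Pdk3, Pfkfb2 and Slc2a3 had too few counts to test.

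Tpi1 was higher than in Myog-positive cells, at 2386, 2371, 2128 and 1623 CPM (log2 fold change 4.26, SE 0.18, edgeR adjusted p = 4.93e-11). Aldoa stood at 11831, 15027, 12819 and 12276 CPM, 4.15 log2 units higher (SE 0.16), and Gapdh at 8898, 9692, 11160 and 11026 CPM, 2.07 higher (SE 0.15). Slc16a3 was also higher, at 40.5, 27.2, 19.9 and 31.5 CPM (log2 fold change 3.19, SE 0.31, edgeR adjusted p = 3.88e-07). Slc16a1, at 4.05, 7.77, 6.91 and 21.8 CPM, was not called (edgeR adjusted p = 0.621). Slc2a1 was at 0, 2.99, 2.59 and 9.70 CPM, and not called (edgeR adjusted p = 0.0688). With library size alone, Slc2a1 (-1.61, edgeR adjusted p = 0.0129) and Pdk4 (-0.73, edgeR adjusted p = 0.0125) were called lower.

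Pgam1, the partner of Pgam2, was at 22.3, 18.8, 14.7 and 19.4 CPM in mature-muscle barcodes against 108, 49.5, 63.6 and 58.2 CPM (log2 fold change -1.30, SE 0.23, edgeR adjusted p = 0.00017). Eno1 was at 2.02, 26.6, 20.7 and 41.2 CPM against 69.9, 135, 105 and 92.5 CPM (log2 fold change -1.77, SE 0.30, edgeR adjusted p = 0.000103). Pfkp was at 8.10, 12.9, 15.6 and 9.70 CPM against 38.7, 24.4, 36.2 and 27.8 CPM (log2 fold change -0.80, edgeR adjusted p = 0.0194), and Pfkl at 4.05, 3.29, 1.73 and 2.43 against 7.53, 15.03, 5.81 and 21.3 CPM (-1.58, edgeR adjusted p = 0.00766). The general isoforms were thus lower in CPM as well as in share. In the 240 barcodes with at least 1% mitochondrial UMIs, Pfkp had a log2 value of 0.71 and Pgk1 one of -0.11, neither called and both with the sign turned, and Pgam1 was -0.40 and not called. Pfkp was also not called without Control 1, α-cdKO 1 or α-cdKO 2, and Pfkl without α-cdKO 2. The call of Hk2 (0.67) was lost without α-cdKO 1 and with library size alone (0.16).

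The upstream sequences of Pgam2 and Eno3 are shown because the largest log2 fold changes in this comparison were theirs. Capitals mark CAGCTG, a form of the E-box that myogenic factors bind, and a match to the MEF2 motif, searched on both strands. Pgam2 lies at chr11:5803797-5804046 on the - strand and Eno3 at chr11:70656926-70657175 on the + strand, 5′ to 3′ on the strand of the gene, in GRCm38.p6 of RefSeq.
Pgam2: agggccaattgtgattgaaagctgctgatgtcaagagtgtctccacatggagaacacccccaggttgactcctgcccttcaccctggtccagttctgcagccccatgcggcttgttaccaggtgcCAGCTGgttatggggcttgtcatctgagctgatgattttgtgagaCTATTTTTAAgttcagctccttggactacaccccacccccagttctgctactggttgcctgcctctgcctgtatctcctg
Eno3: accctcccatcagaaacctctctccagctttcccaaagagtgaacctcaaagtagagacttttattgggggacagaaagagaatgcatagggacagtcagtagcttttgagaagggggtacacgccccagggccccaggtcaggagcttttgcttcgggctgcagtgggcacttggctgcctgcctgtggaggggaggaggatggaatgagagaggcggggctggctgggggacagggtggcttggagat
Pgam2 held both motifs and Eno3 neither in this window. CAGCTG stood in 13.0% of all 32851 promoters and in 6 of the 45 of members (13.3%), and the MEF2 motif in 2.92% and in 1 of 45 (2.22%).

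Expressed as shares of the UMIs of a family, which do not depend on the scaling of libraries, the largest shifts of Pgam2, Eno3 and Pfkm lay between Myog-positive cells and mature-muscle barcodes. One 3′ tag is counted per molecule, whatever the length of the transcript. Pgam2 made up 6.39% ± 2.57 (SD, n = 4) of mutase UMIs in the top quartile, 13.7% ± 10.4 in Myog-positive cells and 99.4% ± 0.127 in mature-muscle barcodes. Eno3 made up 30.6% ± 6.60, 16.9% ± 6.84 and 99.4% ± 0.495 of enolase UMIs. Enolase here means Eno1, Eno2 and Eno3, without Eno1b, and any undercount of Eno1 would raise the share of Eno3. Pfkm made up 4.06% ± 0.208, 14.4% ± 6.44 and 97.3% ± 0.643 of phosphofructokinase UMIs. All 3 shares rose in 4 of 4 samples at the last step, where the exact sign-flip permutation test gave its smallest possible p, 1 in 8.

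At the step before, from the top quartile to Myog-positive cells, the families moved differently. The share of Eno3 fell by 13.7 points (range 2.57 to 24.5 over the samples), in 4 of 4 samples, while Eno1 rose. The level of Eno3 itself did not fall, with mean CPM of 11.1 and 19.1 and a higher value in 3 of 4 samples. It was not called (log2 fold change 0.44, SE 0.26, edgeR adjusted p = 0.162). With library size alone it was called higher (0.81, edgeR adjusted p = 0.0187). The share of Pfkm rose by 10.4 points (4.76 to 19.4) in 4 of 4 samples, as Pfkp fell, on as few as 56 UMIs of the family per sample, and by 24.47 points without the deepest cells. The share of Pgam2 rose in 3 samples and fell in α-cdKO 1 (exact sign-flip permutation test, p = 0.375), and it was 21.3% and 24.0% in the controls but 4.17% and 5.32% in α-cdKO, where the single cells named above held most of the control UMIs. Pfkl, the liver form, took 24.4% ± 14.3 of the family's UMIs in Myog-positive cells, against 7.13% ± 0.695.

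**Figure D3:**
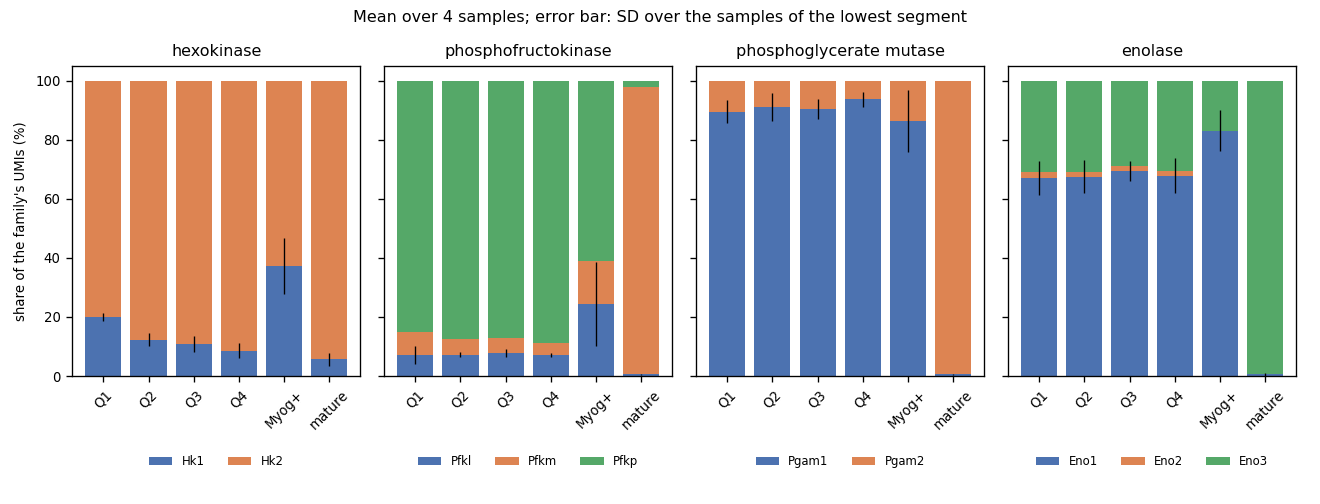
Share of the family's UMIs (%) taken by each gene of 4 enzyme families in the 4 quartiles of the activation index (Q1 to Q4), Myog-positive cells and mature-muscle barcodes, as stacked means over 4 samples with the SD of the lowest segment. Pfkm, Pgam2 and Eno3 take 97.3%, 99.4% and 99.4% in the last bar of their panels and a minority in every other bar.

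The glucose transporters moved at both steps. Slc2a4 made up 1.10% ± 1.04 of glucose transporter UMIs in the top quartile, 17.7% ± 9.43 in Myog-positive cells and 74.1% ± 24.2 in mature-muscle barcodes, where α-cdKO 2 stood apart at 40.0% on 10 UMIs. Its share rose in 4 of 4 samples at each of these steps, by 16.6 and then by 56.4 points. Among lactate transporters Slc16a3 had 22.2% ± 6.20 of the UMIs in Myog-positive cells and 75.5% ± 13.1 in mature-muscle barcodes. Among hexokinases the share of Hk2 was lower in Myog-positive cells and high in mature-muscle barcodes. It was 80.0%, 91.4%, 62.8% and 94.3% in the bottom quartile, top quartile, Myog-positive cells and mature-muscle barcodes. Lactate dehydrogenase kept Ldha in the lead, at 95.8% ± 1.23 in Myog-positive cells and 92.2% ± 3.46 in mature-muscle barcodes, and aldolase was Aldoa alone, with 7 Aldoc UMIs among all myogenic cells. The matrices hold 2 rows named Aldoa, of which the one with 159061 UMIs was used and the other had 5. Among the 3 member kinases of pyruvate dehydrogenase, Pdk4 led in every group, and Pdk1 rose from 1.55% ± 0.457 to 15.5% ± 4.47 between Myog-positive cells and mature-muscle barcodes. The PFK-2 genes, Pfkfb2, Pfkfb3 and Pfkfb4, had as few as 3 UMIs per sample in Myog-positive cells, too few for a share.

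Because the tissue is full of muscle RNA, the level of each muscle isoform in other cells was set beside the level that free muscle RNA would give. The 8 adult-muscle genes together were at 67.5 to 153 CPM in the quartiles, highest in Control 2 in each, and at 28421 to 42113 CPM in mature-muscle barcodes. Scaling the mature-muscle level of Pgam2 by this ratio gave 7.16, 11.01, 8.65 and 6.84 CPM in the top quartile, where 3.27, 8.93, 8.30 and 3.38 CPM were observed. For Eno3 the same sum gave 8.48, 14.5, 11.1 and 8.15 CPM against 8.17, 14.6, 14.7 and 6.75 observed. By this sum Pgam2 was below the level that free RNA would give in every sample, and Eno3 lay on both sides of it. Scaled by Ckm alone, a choice made after seeing the data, the level for Eno3 was 4.78, 13.7, 10.4 and 5.94 CPM. Eno3 was above that level in 4 of 4 samples, and Pgam2 was above its own in 1 of 4. Whether free RNA was the source of either gene in MuSCs was not tested. Endothelial cells held 3.00 to 43.1 CPM of Pgam2 and 7.75 to 24.6 CPM of Eno3. Thinned to 2000 UMIs, 1.06% of top-quartile cells (median 7682 UMIs before thinning) and 2.78% of endothelial cells (7704.5) held a Pgam2 UMI, and 2.13% and 3.47% an Eno3 UMI.

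In Myog-positive cells, Eno3 was observed at 23.7, 13.8, 17.4 and 21.6 CPM where 43.1, 45.3, 27.3 and 33.6 would follow from the adult-muscle genes, so Eno3 was below that level in 4 of 4 samples, as was Pgam2. That level was raised by 1 of the 8 genes, Atp2a1, the calcium pump of fast fibers, at 115 to 300 CPM in Myog-positive cells against 8.55 to 9.85 in the top quartile, while Ckm was at 46.3 to 103 against 19.8 to 65.8. Scaled by Ckm alone, a choice made after seeing the data, the level for Eno3 was 11.1, 21.5, 16.4 and 9.29 CPM, so that Eno3 was above it in 3 of 4 samples, and Pgam2 was above its own in 1 of 4. The position of Eno3 against this level thus depended on the muscle genes used. In the top quartile Pfkm was above the level from the 8 genes in 4 of 4 samples. It was at 3.71, 2.85, 3.37 and 3.38 CPM against 1.22, 2.31, 1.43 and 0.825. In Myog-positive cells Pfkm was below that level in Control 2 and above it in the other samples. Against the level from Ckm alone Pfkm was above in 4 of 4. Slc2a4 was above the level from the 8 genes in Myog-positive cells in 4 of 4 samples. It was at 1.08, 4.38, 2.77 and 2.62 CPM against 0.259, 0.339, 0.282 and 0.0994. The levels of Gapdh, Aldoa and Tpi1 in Myog-positive cells were several times those scaled from the 8 genes. For Tpi1 they were 171, 158, 137 and 159 CPM against 25.4, 25.4, 12.6 and 16.6. The source of the RNA was not tested.

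**Figure D4:**
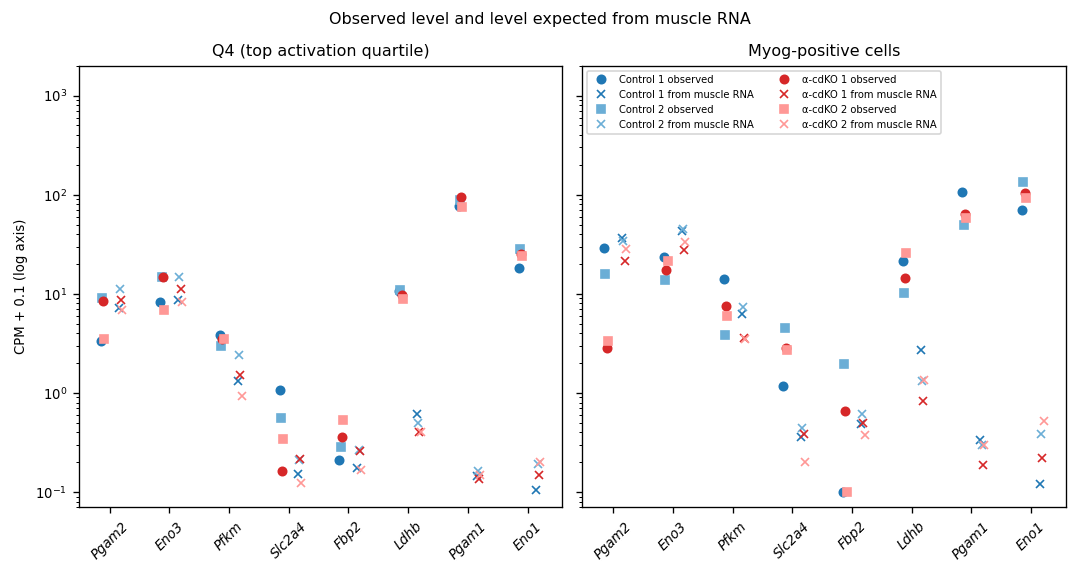
Observed CPM (circles and squares) and the CPM expected from the adult-muscle genes (crosses) of 8 members in the top quartile and in Myog-positive cells, one symbol per sample, on a log axis with 0.1 added. For Pgam2 and Eno3 the crosses lie beside or above the observed points, and for Slc2a4 in Myog-positive cells, Ldhb, Pgam1 and Eno1 they lie below.

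Cycling cells resembled neither neighbour for some members, and no test was run on them. Gapdh was at 1363, 1411, 1474 and 1487 CPM there, and Pgk1 at 201, 210, 195 and 212 CPM, both between the top quartile and Myog-positive cells. Aldoa, at 149, 164, 102 and 124 CPM, was lower than in any quartile. Slc2a4 was at 6.69, 15.9, 10.02 and 12.8 CPM, higher than in the quartiles and in Myog-positive cells, where muscle RNA would give 0.0186 to 0.235 CPM. Its 105 UMIs in cycling cells came from 3, 14, 36 and 16 cells of the samples. Slc2a3 was at 127, 8.31, 15.2 and 9.60 CPM, so that its mean rests on Control 1, which had 28 such cells.

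Genotype was compared last, within the same groups of cells. No member differed between α-cdKO and control by the test, in all myogenic cells (0 of 30), the bottom quartile (0 of 28), the top quartile (0 of 28) or Myog-positive cells (0 of 23). The background was as low: 0.19%, 0.149%, 0.0882% and 0.0341% of all genes tested were called by edgeR. At an unadjusted p under 0.05 there was 1 member in each of the 4 comparisons, where 7.17%, 6.43%, 7.38% and 6.02% of all genes passed, and DESeq2 called 0, 0, 0 and 1 member (Pgam2, described below). The interaction, whether the change with activation differed between the genotypes, called 0 of 28 members with edgeR (0.0163% of all genes), 0 at an unadjusted p under 0.05 (4.04% of all genes) and 0 with DESeq2. A p that misses the threshold with 2 samples in each genotype does not show that the levels were equal.

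The 4 members with the smallest p in all myogenic cells were Gapdh, Slc16a1, Pgk1 and Slc16a3. Gapdh was at 684 and 749 CPM in the controls and at 977 and 819 CPM in α-cdKO, with no overlap (log2 fold change 0.32, SE 0.12, edgeR adjusted p = 0.656). With mature-muscle and non-myogenic cells added the value was -0.10. Slc16a1 was at 47.8 and 36.3 CPM and at 33.2 and 33.2 CPM (log2 fold change -0.35, SE 0.16, edgeR adjusted p = 0.706). Pgk1 was at 74.6 and 83.6 and at 99.1 and 88.6 CPM (log2 fold change 0.24, SE 0.12, edgeR adjusted p = 0.707). Slc16a3 was at 69.6 and 36.5 and at 26.6 and 40.8 CPM, where the genotypes overlapped and Control 1 stood highest (log2 fold change -0.66, SE 0.34, edgeR adjusted p = 0.718), and leave-one-out values ran from -1.06 to -0.10.

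The sums over all myogenic cells mix groups in different shares. Myog-positive cells were 0.966% and 1.87% of the kept cells in the controls and 2.86% and 2.20% in α-cdKO, and cycling cells 0.511%, 1.46%, 3.68% and 1.26%. Within Myog-positive cells the log2 fold change of Gapdh was -0.01 (SE 0.11) and of Pgk1 0.03 (SE 0.16). In the bottom quartile the value for Gapdh was 0.25 (SE 0.11) and in the top quartile 0.27 (SE 0.13). The part of the mixture in the sums was not tested.

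Counting without a test, the genotypes did not overlap for 11 of 30 members in all myogenic cells, 6 higher and 5 lower in α-cdKO, where 38% of all genes did not overlap, 18% higher and 20% lower. The counts were 10 of 28 in the bottom quartile (background 36.1%), 7 of 28 in the top quartile (38%) and 8 of 23 in Myog-positive cells (35.8%). All 4 shares lay near or below their background.

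In Myog-positive cells Pgam2 was at 29.0 and 15.7 CPM in the controls and at 2.77 and 3.27 CPM in α-cdKO (log2 fold change -2.79, SE 0.43, edgeR adjusted p = 0.126). Pgam2 was called lower with DESeq2 (adjusted p = 0.016), with no count filter, without the deepest cells, with at least 1 Myog UMI, with the replicate block and when any one sample was left out, and not with library size alone or with at least 2000 UMIs per cell. The edgeR adjusted p over these edgeR alternatives ran from 2.96e-07 to 0.226, and the log2 fold change from -4.72 to -2.38. One cell held 70.4% of the UMIs in Control 1 and one held 60% in Control 2. Without the highest cell of each sample, the levels were 8.72 and 6.32 CPM in the controls and 2.22 and 2.31 CPM in α-cdKO. These rest on 7 to 10 UMIs each, and the genotypes still did not overlap. The adult-muscle genes together were higher in Myog-positive cells of the controls, at 344 and 451 CPM against 208 and 291 CPM in α-cdKO. Pgam2 was below the level scaled from these genes in every sample. Against the level scaled from Ckm alone, Pgam2 was above in Control 1 only. The part of muscle RNA in the genotype difference of Pgam2 was not tested. Pdk4 was at 102 and 173 and at 235 and 179 CPM (edgeR adjusted p = 0.82), and Hk1 at 47.3 and 27.6 and at 49.8 and 52.3 CPM (edgeR adjusted p = 0.84).

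**Figure D5:**
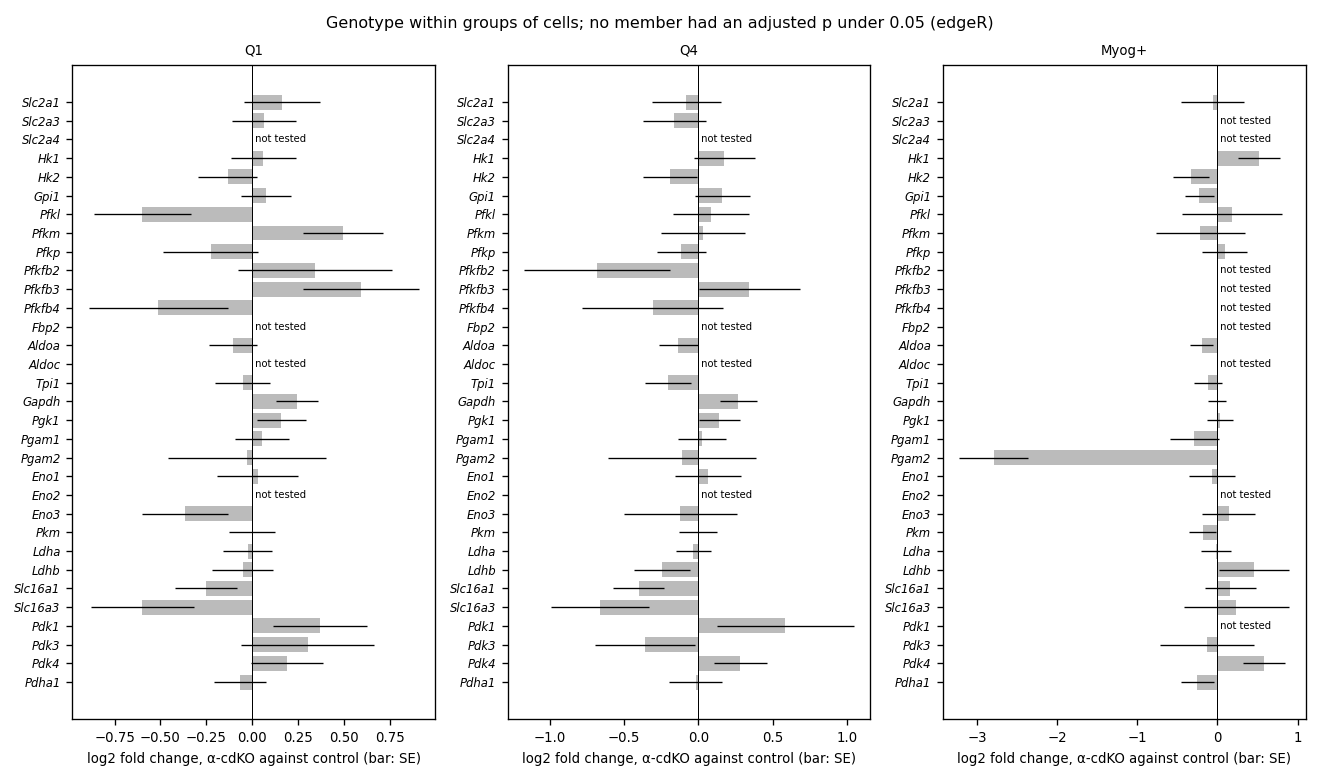
Log2 fold change (error bars are standard errors, edgeR) of α-cdKO against control for each member within the bottom quartile (Q1), the top quartile (Q4) and Myog-positive cells, each panel with its own scale. No bar passed an adjusted p of 0.05, and the longest is Pgam2 at -2.79 in Myog-positive cells, where 1 cell in each control held 70.4% and 60% of its UMIs.

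The 38 other genes of the pathway were counted in the same way. With activation 9 of 26 tested were higher and 6 lower, a share called of 57.7% that lies at the background of 59.8%. Pdk2, another kinase of pyruvate dehydrogenase, fell by 2.25 log2 units (SE 0.21, edgeR adjusted p = 2.34e-07), from 4.56, 5.36, 4.802 and 4.36 to 0.872, 0.920, 1.10 and 0.675 CPM. The phosphoglucomutase Pgm2 rose by 1.30 and the phosphorylase kinase subunit Phkg1 fell by 1.49. In Myog-positive cells 18 of 26 were higher and 5 lower, where 30.2% of all genes were higher and 33.3% lower. Pdk2 was at 11.8, 18.2, 7.74 and 11.1 CPM (log2 fold change 3.30, SE 0.32), Pgm2 fell by 2.05 and Dlat, the acetyltransferase of pyruvate dehydrogenase, rose by 1.74. Pdk2 and Pgm2 therefore turned around between the comparisons, as Tpi1 and Hk2 had.

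With Mymk, 5 of 17 were higher and 1 lower, where 8.59% of all genes were higher and 9.7% lower. The lower one was Pdp2 at -1.48 (edgeR adjusted p = 0.0498). Dlat and the pyruvate carrier Mpc1 rose by 0.90 and 0.86. In mature-muscle barcodes 18 of 25 were higher and 3 lower, where 27.6% of all genes were higher and 35.7% lower. Gpd1, glycerol phosphate dehydrogenase, was at 166, 201, 183 and 82.5 CPM against 1.08, 3.76, 1.94 and 2.94 CPM in Myog-positive cells (log2 fold change 6.36, SE 0.31). Pygm, the muscle glycogen phosphorylase, was at 838, 1199, 1065 and 568 CPM against 29.0, 25.7, 25.7 and 23.5 CPM (log2 fold change 5.60, SE 0.22), and Pgm1 rose by 6.18. Pdk2, at 134, 189, 175 and 121 CPM there, exceeded Pdk4, at 125, 75.3, 133 and 87.3 CPM, in 4 of 4 samples. No gene of this list was called between genotypes by edgeR in any of the 5 tests, with 3, 3, 0, 0 and 0 of them at an unadjusted p under 0.05 in all myogenic cells, the bottom quartile, the top quartile, Myog-positive cells and the interaction.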

How the data were processed

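UMI counts per gene and cell were deposited by the authors, who made them with Cell Ranger 7.1.0 from 10x 3′ libraries on GRCm38. They are whole numbers, not normalized, and the submitters' notes also name Seurat 4.0.3. Each of the 2 control and 2 α-cdKO samples pooled 2 littermates, tdTomato+ cells were sorted, and 30000 cells were loaded.

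Kept cells were grouped in a fixed order by genes outside the 32: mature-muscle, non-myogenic, Myog-positive, cycling, then quartiles of the activation index, log2((Myod1 CPM + 100)/(quiescence-list CPM + 100)). UMIs were summed per sample and group and tested with edgeR 4.0.16 in R 4.3.3 (filterByExpr, TMM, quasi-likelihood, Benjamini-Hochberg over all genes, threshold 0.05), with the sample as a block between groups of cells and genotype as the only term between genotypes. The tests were tried on simulated counts with known changes. Thinning drew 2000 UMIs per cell. Expected levels from muscle RNA scale a gene's mature-muscle CPM by the adult-muscle list. No doublet caller was run, and leaving out the deepest cells was an alternative. That setting left out 1769 of the 28790 kept cells, but it kept only 362 of the 613 Myog-positive cells. DESeq2 1.42.0, other filters, gates and scalings and leaving out each sample were also tried. Intervals cover counting error only.

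The members, lists and rules were chosen with earlier results of these data known. Described in full were the 6 called members of largest log2 change in each comparison, both genes of each isoform pair, and, for genotype, the 4 of smallest p, with the 3 other pathway genes of largest change. Replicate numbers did not pair the samples (correlations of same-numbered deviations from -0.18 to 0.03).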

Additional observations from a re-analysis of the deposited data

Results flagged for a closer look

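For 2 members the ratio between groups of cells had opposite signs in both samples of one genotype and both of the other. The log2 ratio of Pkm between the top and the bottom quartile came to -0.0134 in Control 1, -0.0366 in Control 2, 0.000579 in α-cdKO 1 and 0.034 in α-cdKO 2, a difference of -0.0423 (control minus α-cdKO) for which the interaction had an edgeR adjusted p of 0.999. The log2 ratio of Pgam2 between Myog-positive cells and the top quartile came to 3.15 in Control 1, 0.811 in Control 2, -1.58 in α-cdKO 1 and -0.0467 in α-cdKO 2, a difference of 2.8. That difference was not tested, and 1 cell in each control held 70.4% and 60% of its Pgam2 UMIs. With 2 samples per genotype no sample could be checked against the others of its group.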

How the results depend on the processing

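Of the values given for members between groups of cells, 865 of 948 kept their direction and their side of the threshold under the alternatives, 80 kept the direction but were no longer called, and 3 changed sign: Pkm with activation (-0.004164 with library size alone), and Pfkp (0.7092) and Pgk1 (-0.1108) in mature-muscle barcodes with at least 1% mitochondrial UMIs. Between genotypes 53 of 63 were the same, 9 became called (all Pgam2) and 1 changed sign, Gapdh in all myogenic cells (-0.1007 with mature-muscle and non-myogenic cells added). The count of members called with Mymk, 12, was 7 with DESeq2, 6 without the deepest cells and 5 to 10 when one sample was left out. With one sample left out the counts were 14 to 19 for activation, 18 to 22 for differentiation and 22 to 26 for mature-muscle barcodes. Genotype in Myog-positive cells called 1 member, Pgam2, with DESeq2, with no count filter, without the deepest cells, with at least 1 Myog UMI and with the replicate block (adjusted p = 0.0256, edgeR), and 1 to 2 with one sample left out, Pdk4 being the other, without Control 2. The replicate block changed no other call of a member. Over all genes in all myogenic cells, genotype called 28, with the replicate block 18, and with the crossed numbers, chosen after seeing the data, 239. With one sample left out the bottom quartile called 0 to 1 member (Slc16a3, without Control 2) and the interaction 0 to 1 (Hk2, with opposite signs without Control 1 and without Control 2). Without the deepest cells the share of Hk2 changed by -44.23 points and that of Pfkm by 24.47 points from the top quartile to Myog-positive cells, against -28.6 and 10.4. The causes of these shifts were not tested. With one sample left out, a genotype of 1 sample is assumed to vary like the other. Members under about 1 CPM, such as Slc2a4 and Fbp2 outside muscle, are limited by depth.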
